A study of Mus musculus with 8 samples.

Results

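The genes described here are 36 neighbours of Ncoa2, the gene that encodes SRC-2, on the proximal end of mouse chromosome 1. They were chosen by position from a list of names, and all 36 are measured, among 18193 genes in all. In map order 23 of them lie before Ncoa2, from Xkr4 to Prdm14, and 13 lie after it, from Tram1 to Crispld1. RNA came from whole unstressed hearts of male mice fed ad libitum, 4 WT and 4 SRC-2 KO, labelled as 10 to 12 weeks old, with 1 heart on each Affymetrix mouse array. Every mouse of both genotypes carries the strain label C57B/6Jx129Sv, and the paper describes littermates and a germline deletion of SRC-2 in the KO mice. The deletion is therefore present in all cell types of the heart. The signal of a probeset, a group of short probes that read one transcript, is in linear units, and differences are given as log2 KO minus WT.

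SRC-2 is a coactivator that joins nuclear receptors and other transcription factors to enzymes that modify chromatin. DNA that lies close to a disrupted gene is inherited with it, so in mice of mixed strain the genes around the disruption can carry alleles of a different strain in knockout and wild type littermates. Genes along such a stretch share a place and no common function, and the 36 genes here include metabolic enzymes, transcription factors, ubiquitin enzymes, kinases and matrix enzymes. Neither the strain of origin of the alleles nor the match of the probes to them was measured in these data, and the part of either in the values below was not tested.

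Ncoa2 was read first as the check of the genotype labels. Its brightest probeset had signals of 1660, 2115, 1827 and 2134 in the WT hearts and of 237, 260, 267 and 235 in the KO hearts. The groups were far apart, with a log2 difference of −2.95 (standard error 0.12, adjusted p = 0.000589 by limma with a common variance prior and 9.61e-08 with a trended prior). The next probeset of Ncoa2, at a mean signal of 114.4, also kept the groups apart, with a difference of −2.63. Its dimmer probesets, at mean signals of 62.8 and 54.3, had differences of 0.67 and −0.28, and their groups overlapped. The common-variance fit draws the spread of every gene toward one value and was the main test, and the trended fit draws it toward that of genes with similar signal. On each array 36.9% to 40.7% of probesets had a signal below 50, where values scatter widely. Markers of the ventricular muscle cells that make up most of a heart were bright in every array, with a summed signal of 357959 to 506890 in the WT group and 435246 to 570334 in the KO group. All 6 markers of atrial muscle cells had lower values in KO hearts, with sums of 154437 to 257314 for WT against 16498 to 194621 for KO. All 7 fibroblast markers (81344 to 134007 and 54353 to 84812), all 6 endothelial markers (8569 to 10662 and 6597 to 9226) and all 6 macrophage markers (15625 to 19882 and 11906 to 15015) were lower too. All 3 smooth muscle markers had lower log2 means in KO hearts (sums of 931 to 2012 and 659 to 3141). The sums of all these sets overlapped between the groups, except those of the macrophage markers. None of these markers passed the test in either fit and none lay under a signal of 50 in all arrays. Of 4 skeletal muscle markers 3 were lower (median log2 difference −1.02), and one of them, Tnni2, was called lower in the trended fit. The measured markers of adipocytes (2, median 0.90) and of red blood cells (2, median 0.55) were all higher, and of 5 neuron and glia markers 3 were lower, with none called. Their part in the differences of the flanking genes was not tested, and in whole hearts fewer cells of a type and less RNA per cell cannot be told apart.

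One flanking gene, Adhfe1, was higher in the SRC-2 KO hearts in the trended fit, and no flanking gene passed in the common-variance fit. In the trended fit 1 of the 36 genes was called higher and 0 were called lower, beside 0.121% and 0.258% of all genes. In the common-variance fit 0 were called in either direction, beside 0.0055% of all genes higher and 0.0165% lower. At an unadjusted p under 0.05 that fit gave 7 of the 36 (19.4%), beside 10.1% of all genes (3.95% higher and 6.12% lower). The trended fit gave 8 genes (22.2%) at that unadjusted level, beside 12.6% of all genes (5.36% higher and 7.28% lower). The differences had both signs, with 16 genes above 0 and 20 below. Their median was −0.04, beside −0.03 for all genes, and their median size without regard to sign was 0.25 for both. Among genes with a mean signal above 50 that size was 0.23 for the flanking genes and 0.19 for all genes.

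**Figure D1:**
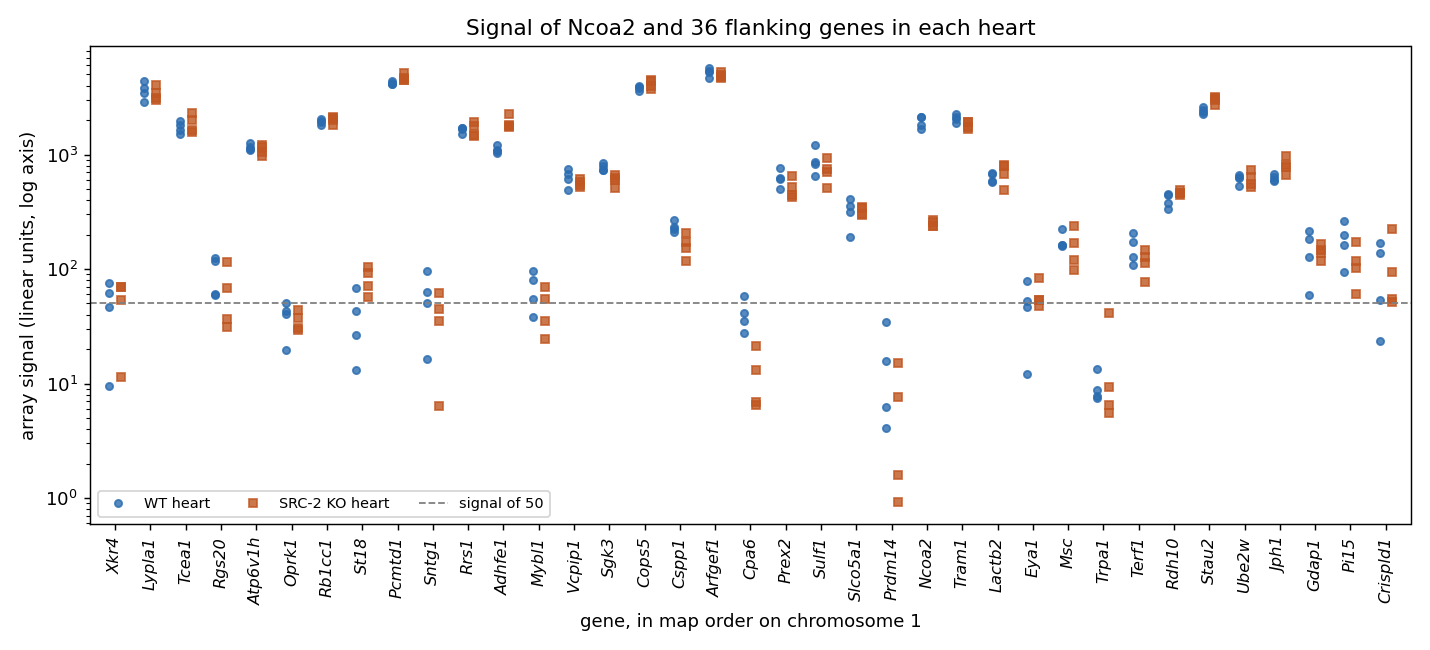
Signal of the brightest probeset of Ncoa2 and each of the 36 flanking genes (log axis, linear units) in 4 WT hearts (circles) and 4 SRC-2 KO hearts (squares), in map order on chromosome 1. Ncoa2 and Adhfe1 show the widest gaps between the groups among genes above a signal of 50, marked by the dashed line.

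Adhfe1 encodes a mitochondrial transhydrogenase that oxidises gamma-hydroxybutyrate while it converts oxoglutarate to hydroxyglutarate. The signals of its brightest probeset were 1203, 1033, 1073 and 1090 in WT hearts and 1827, 1723, 2277 and 1759 in KO hearts. Every KO heart lay above every WT heart, and the KO hearts were more spread, with replicate 3 the highest. Mean signal was 1100 ± 73.0 (SD, n = 4) for WT and 1897 ± 257.5 for KO, which gives a log2 difference of 0.78, or 1.72-fold on the scale of log2 means (adjusted p = 0.0157 in the trended fit, standard error 0.11, and 0.210 in the common-variance fit, standard error 0.13). A second probeset of the gene, listed under the same cDNA accession as the first, had 536, 488, 553 and 424 in WT and 761, 887, 984 and 792 in KO hearts. It too kept the groups apart, and its log2 difference was 0.77. When all 45037 probesets were fitted as separate features, both passed in the trended fit (adjusted p = 0.0137 and 0.0375, where 0.173% of all probesets passed) and neither did with a common variance (0.375 and 0.449, where 0.0111% passed). A further probeset lay near background, with WT values of 2.90 to 9.26 and KO values of 7.21 to 50.5, and its groups overlapped. Without each heart in turn the log2 difference of the brightest probeset stayed between 0.69 and 0.82. The trended fit still called the gene in 6 of those 8 fits, but not without WT replicate 2 (adjusted p = 0.0724) or WT replicate 3 (0.0515), and not with signals under 50 set to 50 across the array (0.107), a setting that leaves the values of Adhfe1 as they are.

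The gene that comes just before Adhfe1 in the map, Rrs1, which acts in the assembly of the large ribosomal subunit, differed by −0.00 (standard error 0.13). Its signals were 1695, 1666, 1523 and 1715 in WT and 1480, 1791, 1440 and 1928 in KO hearts, so the KO values spanned the WT values. The next flanking genes after Adhfe1 are Mybl1, a transcription factor of germ cells, and Vcpip1, a deubiquitinase that works with the VCP ATPase. Both overlapped between the groups, at 67.5 ± 26.4 (SD, n = 4) and 45.8 ± 19.9 for Mybl1 and at 633 ± 105.6 and 563 ± 41.8 for Vcpip1.

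**Figure D2:**
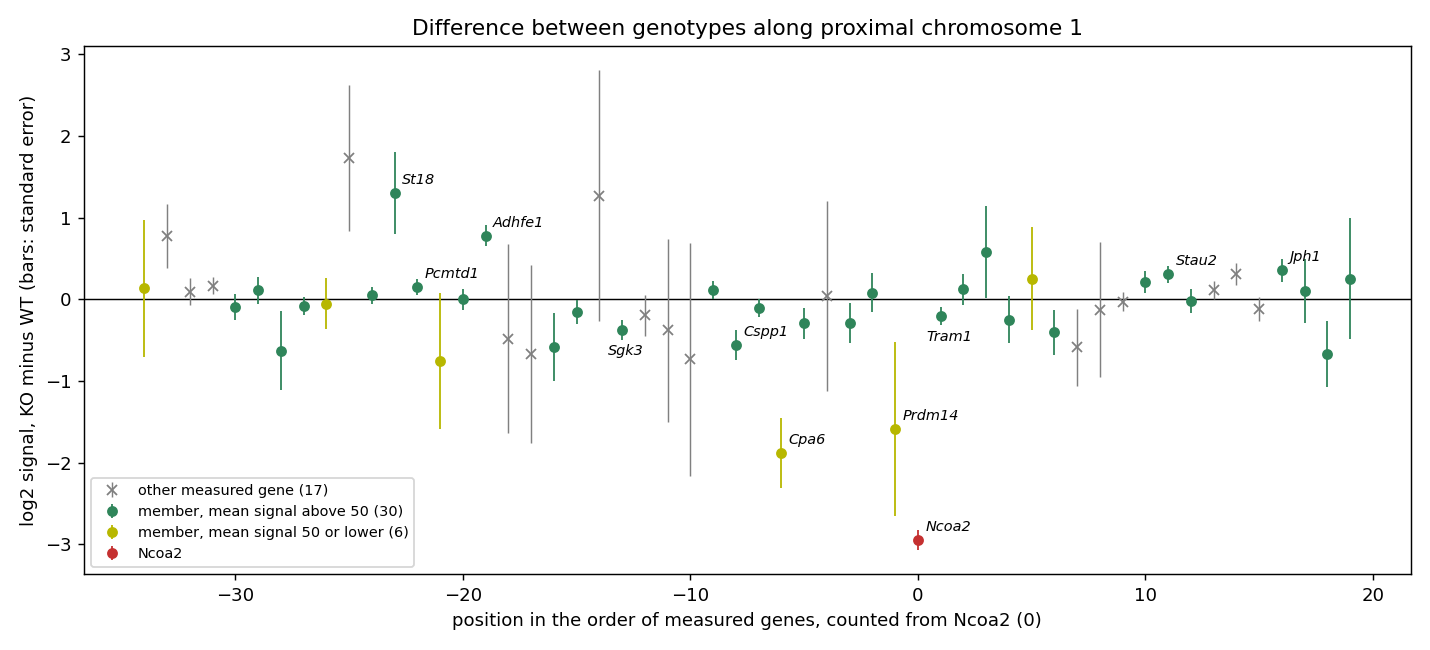
Difference of log2 signal, KO minus WT, of Ncoa2, the 36 flanking genes and the 17 other measured genes between the first and last of them, against position in the order of measured genes counted from Ncoa2. Bars are standard errors of the common-variance fit, and Adhfe1 lies at 0.78 while Rrs1 beside it lies at 0.

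Besides Adhfe1, the hearts of both genotypes did not overlap in 5 flanking genes, and none of these 5 passed in either fit. In all 3 of the 36 had every KO heart above every WT heart and 3 had every KO heart below, beside 3.1% and 3.72% of all genes. Among the 30 flanking genes with a mean signal above 50 it was 3 above and 2 below, beside 3.63% and 4.55% of all genes that bright, or 5 in either direction beside 8.18%. The 3 higher ones are Adhfe1, Pcmtd1 and Stau2, and the 3 lower ones are Sgk3, Cspp1 and Cpa6. Stau2 encodes a protein that binds double-stranded RNA and takes part in its transport. It had 2584, 2256, 2455 and 2373 in WT and 2681, 3191, 2996 and 3113 in KO hearts, a log2 difference of 0.31 (standard error 0.10, adjusted p = 0.433, and 0.153 in the trended fit). KO replicate 1 was only just above the highest WT heart. The other probesets of Stau2, at mean signals of 1048 and 134.6, had differences of 0.27 and 0.05, and their groups overlapped. Pcmtd1, a relative of the methyltransferase that repairs damaged aspartyl residues, had 4166, 4350, 4207 and 4168 in WT and 4482, 4660, 5148 and 4476 in KO hearts. This gap was narrow, with a log2 difference of 0.15 (standard error 0.10, adjusted p = 0.622 and 0.458), and the other 4 probesets of Pcmtd1 with a mean signal above 50 ran from −0.04 to 0.11 and overlapped between the groups.

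Sgk3 encodes a kinase that acts downstream of PI3 kinase on endosomes. Its signals were 799, 731, 839 and 739 in WT and 626, 513, 604 and 665 in KO hearts, a log2 difference of −0.37 (standard error 0.12, adjusted p = 0.410, and 0.206 in the trended fit). Its next probeset had a difference of −0.28 with groups that overlapped, and its dimmest one 0.12. Cspp1 encodes a protein of the centrosome and cilium. It had 223, 268, 233 and 212 in WT and 118, 171, 151 and 206 in KO hearts, where KO replicate 4 came close to the lowest WT heart (log2 difference −0.56, standard error 0.19, adjusted p = 0.424 and, in the trended fit, 0.358). All further probesets of Cspp1 had mean signals under 50. Cpa6, a secreted carboxypeptidase, was apart only near background, with WT hearts at 27.7 to 57.7 and KO hearts at 6.44 to 21.4 (−1.88, standard error 0.43, adjusted p = 0.336 and 0.257).

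**Figure D3:**
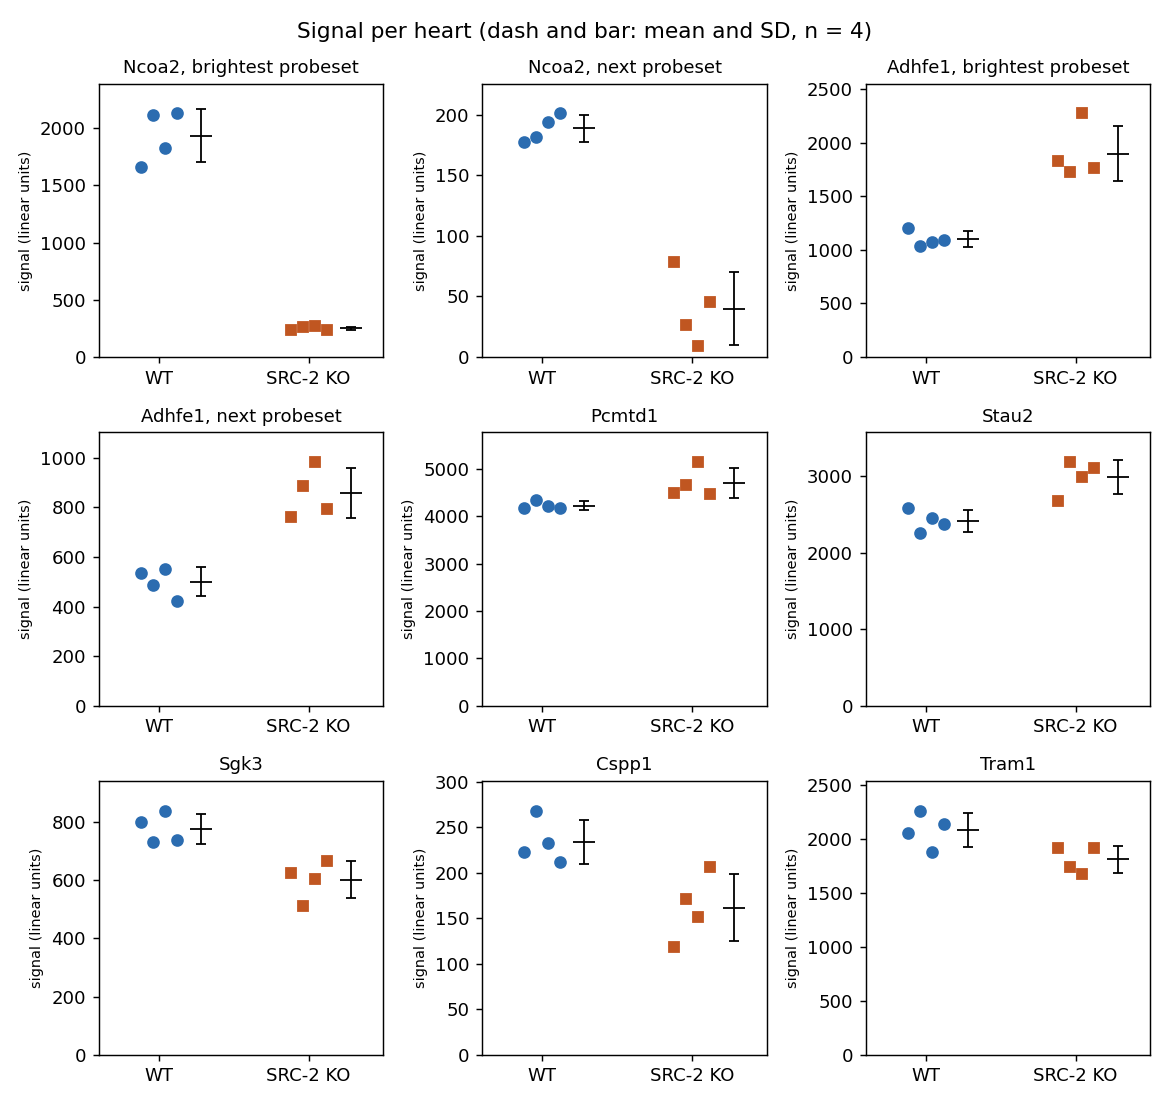
Signal in each heart (linear units, axes from 0) for both brighter probesets of Ncoa2 and of Adhfe1 and for the brightest probeset of Pcmtd1, Stau2, Sgk3, Cspp1 and Tram1. Circles are WT and squares SRC-2 KO hearts, dashes and bars are means and SD (n = 4), and the groups overlap for Tram1 and for none of the other panels.

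The nearest neighbours of Ncoa2 did not pass either. On the proximal side the nearest measured gene is Prdm14, a regulator of germ cells and pluripotent cells, whose only probeset lay near background, at 6.18, 15.8, 34.8 and 4.06 in WT and 7.57, 0.91, 1.60 and 15.2 in KO hearts. The groups overlapped, and a log2 difference of −1.59 with a standard error of 1.07 (adjusted p = 0.640 and 0.582) rests on signals that cannot be told from background. On the distal side it is Tram1, a protein of the channel that moves new proteins into the endoplasmic reticulum. Tram1 had 2053, 2262, 1878 and 2134 in WT and 1918, 1737, 1673 and 1915 in KO hearts. The upper KO hearts reached above the lowest WT heart, and the log2 difference was −0.20 (standard error 0.11, adjusted p = 0.575 and 0.385). A dim second probeset of Tram1 had the opposite sign, 0.94, over signals of 15.0 to 202.4. Lactb2, the gene after Tram1 and a mitochondrial ribonuclease, had a mean of 631 ± 61.3 in WT hearts (SD, n = 4) and 697 ± 148.9 in KO hearts.

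Among the metabolic enzymes and pumps, 4 of 6 had values above 0, beside 8557 of all 18193 genes. In the common-variance fit 0 of the 6 passed, and in the trended fit 1, Adhfe1, passed. Rdh10, a retinol dehydrogenase of retinoic acid synthesis, had means of 401 ± 57.7 for WT and 461 ± 20.5 for KO (SD, n = 4). Lypla1, a thioesterase that removes palmitate from proteins, had 3626 ± 615.1 and 3382 ± 457.4, and Atp6v1h, a regulatory subunit of the vacuolar proton pump, 1160 ± 70.1 and 1099 ± 103.7. The groups of all of these overlapped.

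Of 7 transcription and chromosome factors, 0 passed and 3 had values above 0. Tcea1, an elongation factor of RNA polymerase II, had means of 1736 ± 205.6 for WT and 1884 ± 337.8 for KO (SD, n = 4). Terf1, which binds telomere repeats, had 154.1 ± 43.6 and 116.0 ± 29.4, and Msc, a basic helix-loop-helix repressor of muscle genes, 176.6 ± 30.8 and 155.8 ± 62.4. The largest difference above 0 was in St18, a zinc finger factor, at 13.2, 68.5, 43.4 and 26.4 in WT and 91.7, 70.7, 57.4 and 103.2 in KO hearts. Those values lie around a signal of 50 and overlap (log2 difference 1.30, standard error 0.50, adjusted p = 0.467 and 0.372), and the other probeset of St18, at a mean signal of 22.4, had a difference of −1.97. Eya1, a phosphatase and coactivator of development, stood at 47.4 ± 27.5 and 59.8 ± 16.1.

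Of 6 signalling proteins, receptors and channels, 0 passed and 5 had values below 0. Prex2, an activator of the GTPase Rac, had means of 624 ± 106.2 for WT and 511 ± 102.4 for KO (SD, n = 4). A dimmer probeset of Prex2 kept the groups apart, with 68.8 to 83.3 in the WT hearts and 27.8 to 45.6 in the KO hearts (log2 difference −0.98, adjusted p over all probesets 0.382, and 0.524 in the trended fit). Rgs20, which speeds GTP hydrolysis by G proteins, ran from 59.2 to 123.8 in WT hearts and from 31.0 to 115.6 in KO hearts. The kappa opioid receptor gene Oprk1 (38.4 and 35.3), the syntrophin gene Sntg1 (56.4 and 37.0) and the irritant channel gene Trpa1 (9.37 and 15.7) stood near background on average in both genotypes, so the arrays could show no more than a large difference in them.

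Of 4 genes of ubiquitin and autophagy, 0 passed, 2 had values above 0, and all lay within 0.16 of 0. Cops5, the catalytic subunit of the COP9 signalosome, had means of 3816 ± 169.0 for WT and 4140 ± 365.4 for KO (SD, n = 4), with groups that overlapped, while Cspp1 is the next gene after it in the map. Rb1cc1, a scaffold that starts autophagy, had 1935 ± 108.1 and 2003 ± 145.7, and Ube2w, a ubiquitin-conjugating enzyme, 615 ± 58.4 and 610 ± 94.1. Of 4 genes of ribosomes, RNA and trafficking, 0 passed. Arfgef1, an exchange factor for ARF GTPases at the Golgi, had 5255 ± 455.5 and 4885 ± 259.3.

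Of 5 genes of membranes and organelles, 0 passed and 4 had values above 0. Jph1 belongs to the junctophilins, which hold the surface membrane of muscle cells close to the calcium store. It had 638, 598, 680 and 585 in WT and 806, 777, 966 and 668 in KO hearts, and only KO replicate 4 fell within the WT range (log2 difference 0.35, standard error 0.14, adjusted p = 0.472 and 0.268). Its dimmer probeset had a difference of 0.33 with wide overlap. Gdap1, of the outer mitochondrial membrane, had 146.9 ± 68.7 and 142.8 ± 19.9 (SD, n = 4), and the organic anion transporter gene Slco5a1 ran from 189.0 to 407.7 in WT hearts and from 296.2 to 350.9 in KO hearts. Xkr4, a lipid scramblase gene and the first measured gene of the chromosome, stood at 48.1 and 51.2, near background.

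Of 4 secreted and matrix genes, 0 passed and 3 had values below 0. Sulf1, a sulfatase that edits heparan sulfate outside the cell, had means of 885 ± 229.9 for WT and 722 ± 177.7 for KO (SD, n = 4), and the groups overlapped. A second probeset of Sulf1 kept them apart, the WT hearts lying at 393 to 690 and the KO hearts at 306 to 383 (log2 difference −0.52, adjusted p over all probesets 0.657, and 0.320 in the trended fit). The fibroblast markers, given above, had lower log2 means in the same KO hearts, and their part in the difference of Sulf1 was not tested. Pi15, a peptidase inhibitor, had 179.5 ± 70.0 and 113.1 ± 46.3, and its relative Crispld1 96.3 ± 68.9 and 106.0 ± 80.0.

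The precision differed widely with signal. In the 10 flanking genes other than Adhfe1 with a mean signal above 1000, the log2 differences ran from −0.20 to 0.31 with standard errors of 0.10 to 0.16. In the 15 with a mean signal of 100 to 1000 they ran from −0.67 to 0.35, with standard errors of 0.12 to 0.74. In the 4 between 50 and 100 they ran from −0.63 to 1.30. In the 6 at 50 or lower they ran from −1.88 to 0.25, with standard errors of 0.31 to 1.07.

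Reading all 89 probesets of the 36 genes in place of the brightest gave 12 in which the hearts of both genotypes did not overlap, 5 with KO above and 7 with KO below, beside 2.64% and 3.29% of all probesets with a single gene symbol (5.93% in either direction). Those 12 are 13.5% of the 89. Of the 57 with a mean signal above 50, 9 (15.8%) were apart, 5 with KO above and 4 with KO below, beside 3.21% and 4.1% of all probesets that bright. Only the pair of Adhfe1 came from one gene. In 20 genes at least 2 probesets had a mean signal above 50, and these had one sign in 11 genes and opposite signs in 9. The differences were 0.78 and 0.77 for Adhfe1, 0.35 and 0.33 for Jph1 and 0.11 and 0.10 for Tcea1. Those of Lypla1 were less alike, with −0.09 and 0.20 on its bright probesets and 1.84 on a dim one whose WT values were 7.26 to 47.0 and KO values 73.1 to 100.7. A dim probeset of Vcpip1 had −3.36, from WT values of 46.8 to 59.4 and KO values of 2.04 to 24.6, where its bright ones had −0.16 and −0.21.

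**Figure D4:**
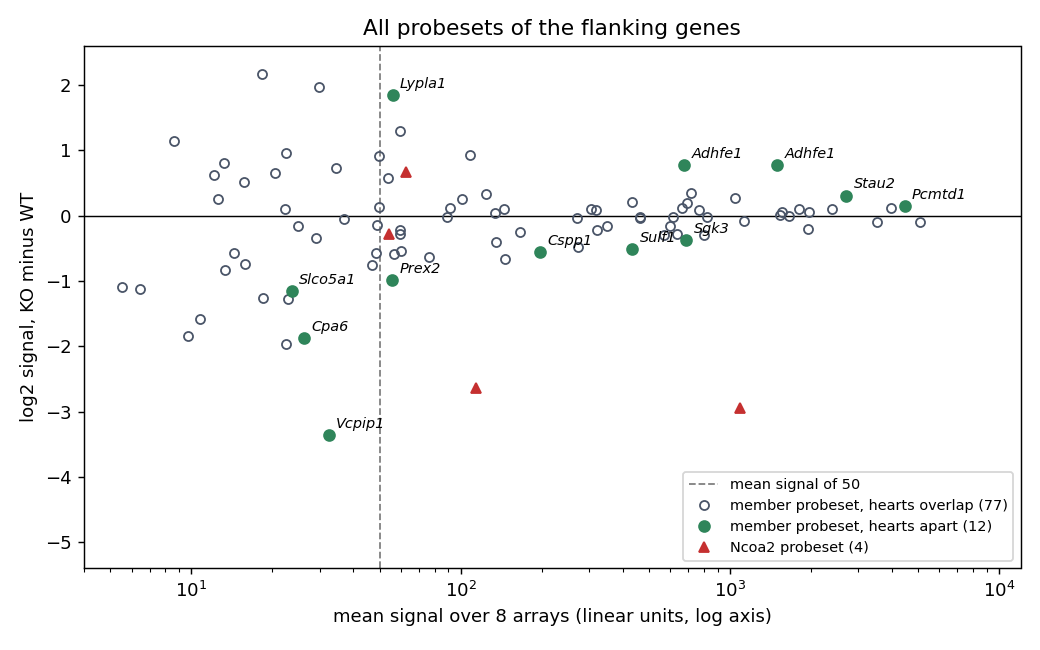
Difference of log2 signal, KO minus WT, against mean signal over the 8 arrays (log axis) for the 89 probesets of the flanking genes and the 4 of Ncoa2. Filled circles are the 12 probesets whose KO and WT hearts did not overlap, and the spread of differences widens below a mean signal of 100.

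The other genes of the region gave no further call. Between Xkr4 and Crispld1 the arrays measured 17 more genes, 7 of them with a mean signal above 50. None passed in either fit, and at an unadjusted p under 0.05 the common-variance fit gave 0 and the trended fit 1. Tmem70, an assembly factor of the mitochondrial ATP synthase that lies between Stau2 and Jph1, had 5688 in WT and 7107 in KO hearts on average (log2 difference 0.31, adjusted p = 0.233 in the trended fit), and its hearts did not overlap. The ribosomal gene Rpl7 had −0.03 and Eloc, a subunit of elongin, 0.12. A list of 28 other genes from this end of the chromosome had 22 measured, 9 of them among the same 17, and 0 passed in either fit. In the nearest 10 measured genes on each side of Ncoa2, 2 of 20 were apart between the genotypes, in the nearest 25 it was 7 of 50, and in the nearest 50, of which the proximal side holds only 34, it was 8 of 84. Over the rest of chromosome 1 it was 66 of 999 genes, and over all genes 6.82%. The 36 genes fall in these windows, and the shares are descriptions with no test.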

How the data were processed

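The authors' table holds one intensity for each of 45101 probesets on 8 arrays, on a linear scale and scaled to one trimmed mean per array (2% trimmed at each end). RMA, Partek and Affymetrix Expression Console are the tools in the submitters' processing notes. RMA values on the log2 scale had been planned for. The deposited ones are linear, with a trimmed mean of 500 on every array and lowest signals of 0.22 to 0.52. They were not read as RMA values, and were put on the log2 scale without a floor or any further normalization. Of these probesets, 64 are controls and 34945 others have 1 gene symbol. The one with the highest mean over 8 arrays stood for its gene, which gave 18193 genes. A RefSeq gene table (assembly GRCm38.p6) gave current symbols (18032 genes) and map order, and no coordinates. KO was compared with WT in limma 3.58.1 (R 4.3.3), with lmFit and eBayes and Benjamini-Hochberg adjustment over all genes at 0.05. Two-sided p-values set the difference between the groups against the spread between hearts, after the fit has drawn that spread toward its prior. The number of arrays limits precision. The fits were tested on simulated data, independent normal noise whose spread depended only on mean signal. That is the kind of spread toward which the trended fit draws, so the simulation cannot decide between the fits. Alternatives were other priors, scalings, floors, filters and probeset choices, a replicate block and leaving out each array. The members, gene groups and tests were chosen with earlier results of these data known. Values per heart are given for Ncoa2, members that passed or did not overlap at a signal above 50, and the nearest neighbours. St18, Jph1, Rrs1 and the named probesets were added after their values were seen.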

Additional observations from a re-analysis of the deposited data

Results flagged for a closer look

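Among the 74 groups of 4 hearts formed by Ncoa2 and the 36 flanking genes, 2 had a heart far from the other 3, where chance gives about 1 group in 20. For Xkr4 the gap of KO replicate 2 (signal 11.4, the others 54.1 to 69.8) was 0.859 of the range of its group on the log2 scale. For Msc that of WT replicate 2 (222.7, the others 158.7 to 163.6) was 0.91 of the range. Neither gene was called in any fit.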

How the results depend on the processing

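Of the flanking genes 0 were called lower in every alternative run. The number called higher was 0 in the common-variance fit and 1, Adhfe1, in the trended fit, in the common-variance fit on genes above the median signal, and in the trended fit with the replicate block, after quantile normalization or on genes above the median signal. The trended fit combined with the block, a floor, quantile normalization or a signal filter, or run over probesets, was chosen after seeing the data. In the trended fit the number ranged from 0 to 1 when each array was left out. With all probesets as separate features 2 probesets of the flanking genes were called in the trended fit and 0 in the common-variance fit. In the common-variance fit Ncoa2 lost its call with the mean of all its probesets (−1.30, adjusted p = 0.478) and with the replicate block (−2.95, adjusted p = 0.258). The trended fit with the block still called Ncoa2 (adjusted p = 1.87e-05). Without each array in turn its difference ran from −3.02 to −2.90. Over all genes the common-variance fit called 1 higher and 3 lower. These counts were 22 and 47 in the trended fit, 0 and 1 without a prior, 0 and 0 with the replicate block, 0 and 3 after quantile normalization, 0 and 2 with signals under 50 set to 50, 0 and 1 with the mean of all probesets, and 4 and 18 on genes above the median signal. In the trended fit they were 25 and 47 with the block, 17 and 30 after quantile normalization, 29 and 57 on genes above the median signal, and 0 and 2 with signals under 50 set to 50. Without each array in turn they ran from 0 to 1 and from 1 to 5 in the common-variance fit and widely in the trended fit. There they were 6 and 15, 2 and 3, 4 and 8, and 4 and 17 without WT replicates 1 to 4 in that order, and 10 and 45, 10 and 31, 5 and 26, and 104 and 218 without KO replicates 1 to 4. With the mean of all probesets the differences of Pcmtd1 (−0.13), Cspp1 (0.14), Tram1 (0.37) and St18 (−0.33) changed sign, none of them past the threshold, and 24 of the 36 flanking genes kept the sign of the brightest probeset. The causes were not tested. The labels do not say whether hearts of the same number form a pair. Deviations of same-numbered hearts correlated between −0.08 and 0.12 over the brighter genes, and those of other pairs between −0.13 and 0.15. So few correlations cannot decide whether hearts were matched. Signal over background limits the genes near or under 50.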
